A study of Mus musculus with 165 samples.

Results

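Clec4f, Timd4, Vsig4, Cd5l, Marco, Folr2, Adgre1, Cd163, Gpnmb and Mmp12 are genes by which Kupffer cells, the resident macrophages of the liver, and other liver macrophages are known. They were chosen by name, as the rows of the liver count table whose Ensembl identifiers map to these symbols. They make up 10 of the 55471 identifiers in that table. All 10 passed the filter on low counts, which kept 15579 liver genes for testing. The study sequenced polyadenylated RNA from the livers and brains of male mice of the inbred C57BL/6J/Ukj strain. The liver groups held 16 mice at 3 months of age, 16 at 9 months, 16 at 15 months, 17 at 24 months and 18 at 28 months, with 1 liver library per mouse. The labels name no treatment and state that the animals were housed only to age. They place each library in 1 of 3 library preparations, called prep 1, 2 and 3 below, and each prep held mice of every age. The comparisons below ask how the level of these genes differed between ages, mainly 24 and 28 months against 3 months.

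Liver libraries held 5.82 to 57.5 M counts, and the shallowest, 15 months replicate 16, was the only one under 22.8 M. The labelled tissue was checked against Alb, the serum albumin gene of hepatocytes, which was at 39740 CPM or more in every 3-month liver and 14020 CPM or more in every 28-month liver (CPM, counts per M counts of the scaled library, where M is 10 to the power of 6). The macrophage genes Csf1r and Cd68 had means of 77.5 ± 34.4 and 15.4 ± 6.78 CPM at 3 months (SD, n = 16). One 3-month liver, replicate 12 of prep 2, stood apart from the other 15. It held the highest level of all 10 genes among the 3-month livers. Its level of Ptprc, the pan-leukocyte gene for CD45, was 65.6 CPM against 17.6 CPM in the next 3-month liver. Its level of Mki67, a gene of dividing cells, was 21.1 CPM against 4.32 CPM. At 28 months, replicate 9 of prep 1 held the highest level of 7 of the 10 genes and had a Ptprc level of 114 CPM against an age median of 41.9 CPM. Replicate 14 of 28 months was the least like the other livers of its age. Its Alb level was 14020 CPM against an age median of 74980 CPM, and its level of the collagen gene Col1a1 was 122 CPM against 38.2 CPM in the next. Where leaving out 1 of these livers ended a call or moved a value given here by more than 1.5 times, the value without it is given. At 24 months replicate 13 of prep 2 was the least like its age, with Ptprc at 192 CPM and Mki67 at 35.9 CPM.

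Kupffer cells line the liver sinusoids, where they take up bacteria, worn red cells, lipoproteins and dying cells from portal blood. They are seeded before birth and renew themselves, and when they are lost, blood monocytes enter the niche and take on much of the same gene programme. Macrophages loaded with lipid or debris, in fatty or injured liver and in other organs, turn on a further set of genes to which Gpnmb and Mmp12 belong.

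Promoter sequences are shown for Vsig4 and Cd5l, whose levels varied most closely of all pairs. They are also shown for the debris-associated genes Gpnmb and Mmp12, which were correlated with each other more than with the other genes. The last sequence is that of Cd163, whose level was lower at 24 months where the others rose. Each runs from 250 bases before to 50 bases after the start site, 5′ to 3′ on the strand of the gene, and is taken from RefSeq on GRCm38.p6. Capitals mark letters that match 1 of 4 motifs searched on both strands: GAGGAAG for PU.1, TGANTCA for AP-1, TCANGTG for the M-box and TGGGAA for RBPJ. The Vsig4 promoter lies at chrX:96293389-96293688 on the minus strand, that of Cd5l at chr3:87357631-87357930, that of Gpnmb at chr6:49036268-49036567, that of Mmp12 at chr9:7347124-7347423 and that of Cd163 at chr6:124304401-124304700, all 4 on the plus strand.
Vsig4: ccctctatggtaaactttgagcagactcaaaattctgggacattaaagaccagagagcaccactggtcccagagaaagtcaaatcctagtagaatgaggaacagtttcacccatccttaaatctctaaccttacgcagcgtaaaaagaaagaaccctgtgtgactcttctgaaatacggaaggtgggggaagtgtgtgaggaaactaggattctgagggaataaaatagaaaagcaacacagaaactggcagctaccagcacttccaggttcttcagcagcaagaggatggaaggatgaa
Cd5l: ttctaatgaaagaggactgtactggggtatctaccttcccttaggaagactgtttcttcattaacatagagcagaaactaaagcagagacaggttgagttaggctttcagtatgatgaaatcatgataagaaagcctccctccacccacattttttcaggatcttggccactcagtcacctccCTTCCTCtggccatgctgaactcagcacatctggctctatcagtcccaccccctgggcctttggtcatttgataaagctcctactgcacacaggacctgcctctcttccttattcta
Gpnmb: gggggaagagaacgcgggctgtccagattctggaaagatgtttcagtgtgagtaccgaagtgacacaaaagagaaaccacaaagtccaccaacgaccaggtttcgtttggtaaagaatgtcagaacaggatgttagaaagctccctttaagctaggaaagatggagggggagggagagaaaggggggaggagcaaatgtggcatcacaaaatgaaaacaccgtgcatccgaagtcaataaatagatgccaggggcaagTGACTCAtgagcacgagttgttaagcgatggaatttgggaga
Mmp12: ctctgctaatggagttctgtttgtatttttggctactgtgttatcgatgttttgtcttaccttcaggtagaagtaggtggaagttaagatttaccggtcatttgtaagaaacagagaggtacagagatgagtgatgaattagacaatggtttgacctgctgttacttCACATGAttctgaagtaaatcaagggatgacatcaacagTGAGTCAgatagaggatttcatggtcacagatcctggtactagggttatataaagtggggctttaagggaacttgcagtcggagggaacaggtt
Cd163: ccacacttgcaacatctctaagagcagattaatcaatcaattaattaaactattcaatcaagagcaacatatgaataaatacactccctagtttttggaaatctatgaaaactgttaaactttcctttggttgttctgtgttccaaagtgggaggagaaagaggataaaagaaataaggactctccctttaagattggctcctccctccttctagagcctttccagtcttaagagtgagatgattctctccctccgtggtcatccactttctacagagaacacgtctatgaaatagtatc

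The Cd5l promoter held the PU.1 letters on the opposite strand, 67 bases before the start site. The windows shown for the debris-associated pair both held the AP-1 letters, at position 8 after the start site in Gpnmb and 44 bases before it in Mmp12. A window of Folr2, not shown, held them too, 74 bases before its start, so the match did not set the pair apart. The Mmp12 promoter also held the M-box letters on the opposite strand, 83 bases before the start. No motif was matched in the windows of Vsig4 and Cd163. RefSeq lists a second Mmp12 start upstream, whose window held the PU.1 letters instead, and promoters of 9 of the 10 genes were matched in all. Among 32851 mouse promoters of this length, 13.6% held the PU.1 letters, 7.81% the AP-1 letters, 14.3% the M-box letters and 25.6% the RBPJ letters. A match describes the letters only, and the matched stretches of the different motifs did not overlap.

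Expressed per kilobase of exon, the order of the genes in young liver ran from Cd5l down to Gpnmb. Median levels at 3 months were 68.3 CPM per kb for Cd5l, 47.9 for Clec4f and 22.8 for Vsig4, and each of these genes was above the next in all 16 livers. The middle of the order was Folr2 at 9.10, Adgre1 at 6.79, Timd4 at 4.81, Marco at 3.72 and Cd163 at 2.86 CPM per kb. Folr2 was above Adgre1 in 14 of 16 livers, Timd4 above Marco in 11 and Marco above Cd163 in 13, so these neighbours were not apart in every mouse. Mmp12 at 0.0788 and Gpnmb at 0.0485 CPM per kb were lowest, with Mmp12 the higher in 11 of 16. At 28 months Marco came next after Vsig4, at 28.6 CPM per kb, and Cd163 stood at 1.01 CPM per kb beside Gpnmb at 0.896. Cd163 was above Gpnmb in only 10 of 18 livers at that age.

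**Figure D1:**
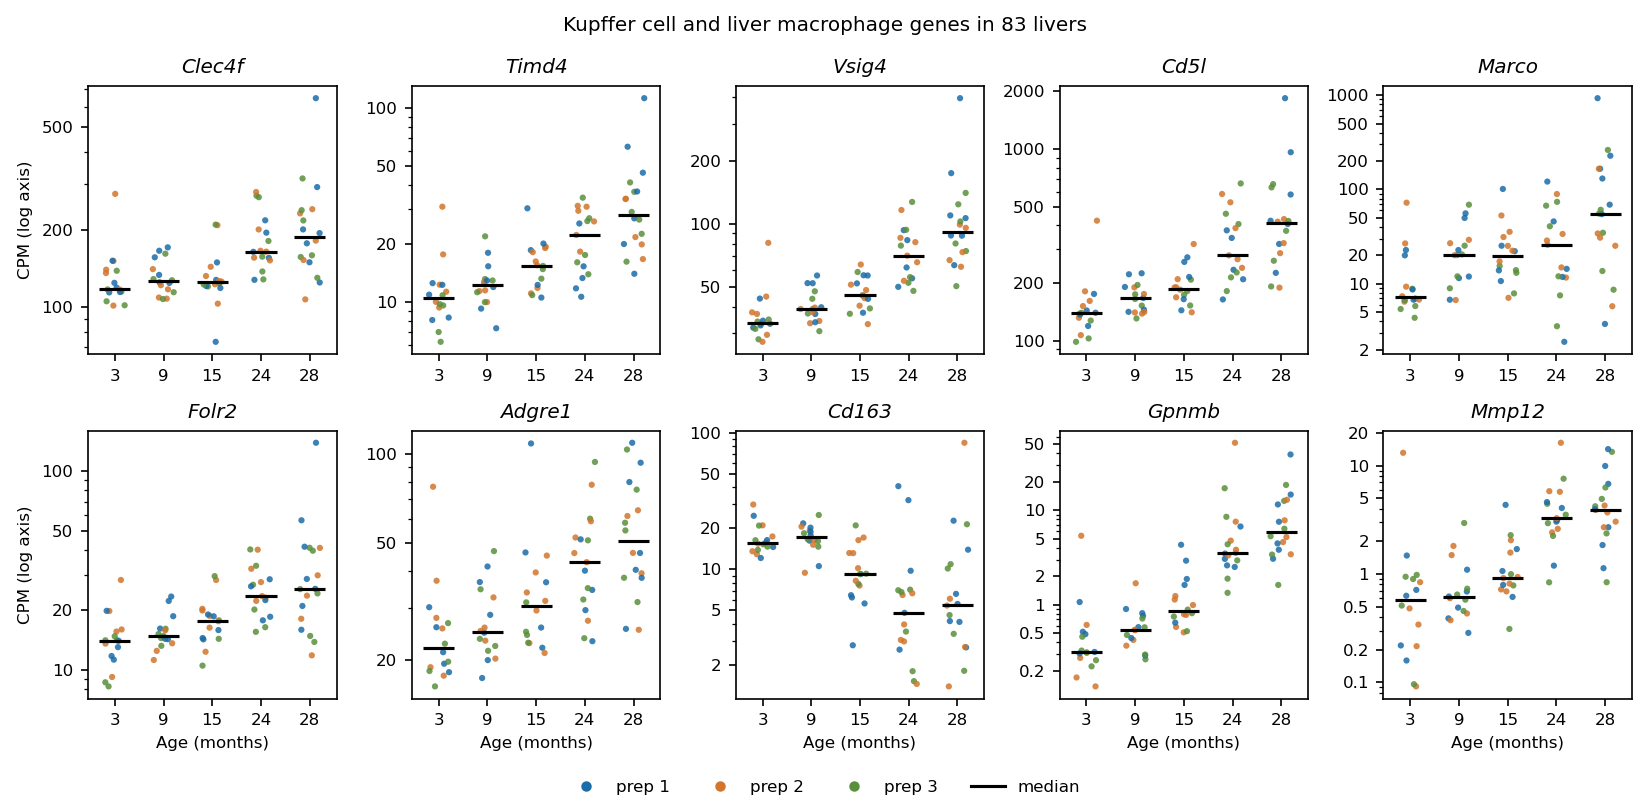
Level of each gene in CPM (log axis) in 83 livers by age in months. Points are single livers coloured by library preparation and black bars are medians. Medians are higher at 28 than at 3 months for 9 genes, while that of Cd163 is 15.6 CPM in young and 5.51 CPM in the oldest livers, of which 1 is at 84.8 CPM.

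At 28 months, 9 of the 10 genes were higher than at 3 months (edgeR quasi-likelihood test, Benjamini-Hochberg adjusted p under 0.05 over 15579 genes, as for every call below). The exception was Cd163. The background of calls was high, with 61.9% of all tested liver genes called and 31.9% called as higher. The median log2 fold change was 1.55 over the 10 genes and 0.01 over all tested genes. In whole tissue, more cells of a type and more RNA per cell cannot be told apart. At 24 months all 10 genes differed from 3 months, 9 higher and Cd163 lower, where 49% of all genes were called, 25% as higher and 24% as lower. The 10 genes then had a median log2 fold change of 0.97 against -0.01 over all genes.

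Clec4f encodes a C-type lectin that in the mouse is nearly confined to Kupffer cells, and lies at chr6:83644542-83656187 on the minus strand (GRCm38, GENCODE annotation, as for all genes here). It ranged from 102 through a median of 118 to 276 CPM at 3 months and from 107 through 188 to 647 CPM at 28 months. The ranges overlapped, and 14 of 18 livers at 28 months lay above the second highest 3-month liver at 152 CPM. It was the smallest of the 9 changes that passed, a log2 fold change of 0.71 ± 0.15 (SE, adjusted p 2.72e-05, edgeR). Timd4, the phosphatidylserine receptor through which long-resident Kupffer cells bind dying cells, lies at chr11:46810800-46844332. It ranged from 6.26 through 10.4 to 31 CPM at 3 months and from 14.0 through 28.1 to 112 CPM at 28 months. Again 15 of 18 older livers exceeded the second highest young one. Timd4 rose by 1.56 ± 0.20 on the log2 scale, or 2.95-fold (adjusted p 4.42e-10, edgeR).

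Vsig4, the complement receptor with which Kupffer cells catch opsonised bacteria from the blood, lies at chrX:96247203-96293438 on the minus strand. Its level was 27.4 to 81.1 CPM with a median of 33.8 at 3 months, and 50.4 to 397 CPM with a median of 91.8 at 28 months. Every 28-month liver lay above every 3-month liver other than replicate 12, and the highest of those 15 held 44.98 CPM. With replicate 12 the ranges overlapped. That liver was set aside after the levels were seen, and how many of all tested genes separate without it was not counted. The change was 1.54 ± 0.16 on the log2 scale, 2.90-fold, with an adjusted p of 1e-12 (edgeR). Cd5l, a secreted scavenger protein of macrophages, lies at chr3:87357881-87371073 and was the most abundant of the 10. It ran from 98.5 through 139 to 423 CPM at 3 months and from 189 through 412 to 1842 CPM at 28 months. As with Vsig4, and with the same limit, all 18 older livers exceeded the second highest young liver, here at 181 CPM. Cd5l rose 3.17-fold, a log2 fold change of 1.67 ± 0.21 (adjusted p 1.67e-10, edgeR).

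Marco, a scavenger receptor for bacteria and particles that only part of the liver macrophages carry, lies at chr1:120474538-120505024 on the minus strand. It varied widely, with 4.36 to 72.4 CPM and a median of 7.16 at 3 months and 3.75 to 929 CPM with a median of 55.1 at 28 months. At 28 months 6 of 18 livers exceeded the highest young liver and 1 fell below the lowest, so old livers spread to both sides. The log2 fold change was 3.04 ± 0.53, or 8.21-fold (adjusted p 1.02e-06, edgeR), and it was 5.83-fold without 28 months replicate 9. At 24 months its change of 1.43 ± 0.50 passed (adjusted p 0.0135, edgeR) but did not with voom and quality weights (0.79, adjusted p 0.182). Folr2, the folate receptor of tissue macrophages, lies at chr7:101839988-101857194 on the minus strand. It went from 8.28, 14.1 and 28.4 CPM (lowest, median, highest) at 3 months to 11.9, 25.6 and 139 CPM at 28 months. In 13 of 18 old livers it was above the second highest young liver. Folr2 rose 2.30-fold, by 1.2 ± 0.19 on the log2 scale (adjusted p 1.78e-07, edgeR). Its exons overlap the antisense gene Gm10602, and whether the counting used the strand is not given in the sources used here, so reads of the pair may be mixed.

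Adgre1 encodes F4/80, the classical surface marker of mouse macrophages, and lies at chr17:57358691-57483527. It ranged from 16.3 through 21.98 to 77.3 CPM at 3 months and from 25.3 through 50.5 to 109 CPM at 28 months, and 15 of 18 old livers exceeded the second highest young one. The change was 1.12 ± 0.21 on the log2 scale, 2.18-fold (adjusted p 3.49e-06, edgeR). Single livers were high at earlier ages as well, such as 15 months replicate 1 at 108 CPM, with the next of that age at 46.3 CPM. At 24 months the 7 genes described so far had log2 fold changes from 0.47 (Clec4f) to 1.43 (Marco), with Vsig4 at 1.01 and Cd5l at 1.15.

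Cd163, the receptor that clears haemoglobin bound to haptoglobin, lies at chr6:124304656-124330527 and took the opposite course. At 3 months it ranged from 12.1 through a median of 15.6 to 29.9 CPM and at 9 months its median was 17.2 CPM. The median was 9.25 CPM at 15 months, 4.80 CPM at 24 months and 5.51 CPM at 28 months. Of the older livers, 2 of 16 at 9 months, 11 of 16 at 15 months, 15 of 17 at 24 months and 14 of 18 at 28 months lay below the lowest 3-month liver. Cd163 was 2.095-fold lower at 24 than at 3 months, a log2 fold change of -1.07 ± 0.38 (adjusted p 0.0149, edgeR). At 28 months a few livers lay far above the rest. Replicate 10 of prep 2 held 84.8 CPM, above every liver of any age, and the next held 22.8 CPM. With it, the log2 fold change at 28 months was -0.56 ± 0.36 (adjusted p 0.174, edgeR). Without replicate 10 it was -1.29 ± 0.32 (adjusted p 0.000384, edgeR) and passed. It also passed in voom with quality weights, which gives less weight to livers unlike the rest, at -1.49 (voom adjusted p 1.1e-05). That fit called all 10 genes at 28 months, beside 9285 of the 15579 genes tested. At 24 months replicate 15 held 40.8 CPM, and leaving it out moved the log2 fold change to -1.42. A lower level was not seen in every prep. In fits of preps 1, 2 and 3 alone the log2 fold change at 28 months was -0.99, 0.14 and -0.90, with no call in any. At 24 months it was 0.10, -2.16 and -1.80, called in preps 2 and 3.

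Gpnmb, a glycoprotein of lysosomes and melanosomes that macrophages make when filled with lipid or debris, lies at chr6:49036546-49070929. It was low in young liver, from 0.137 through 0.316 to 5.37 CPM, and ranged from 1.62 through 5.84 to 38.8 CPM at 28 months. Every liver of 24 and of 28 months was above every 3-month liver except replicate 12, and the highest of those 15 held 1.07 CPM. The limit given for Vsig4 holds here too. Gpnmb had the largest change of the 10, a log2 fold change of 3.80 ± 0.45 or 13.9-fold (adjusted p 4.01e-11, edgeR). Without 3 months replicate 12 the change was 23.4-fold. At 24 months the log2 fold change was 3.49 ± 0.45. It was 4.34 without the same young liver and 2.84 without 24 months replicate 13, which held 51.6 CPM. Mmp12, the macrophage elastase that cuts elastin and other matrix proteins, lies at chr9:7344381-7369499. Its exons overlap Mmp1b on the opposite strand, with the same limit as for Folr2. It ranged from 0.0915 through 0.570 to 13.2 CPM at 3 months and from 0.839 through 3.93 to 14.2 CPM at 28 months. The ranges overlapped through replicate 12, and 16 of 18 old livers exceeded the next young liver at 1.48 CPM. Mmp12 rose by 2.06 ± 0.44 on the log2 scale, 4.17-fold (adjusted p 4.33e-05, edgeR), and 8.65-fold without replicate 12. At 24 months its log2 fold change was 1.74 ± 0.43, and 2.92 without that liver.

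**Figure D2:**
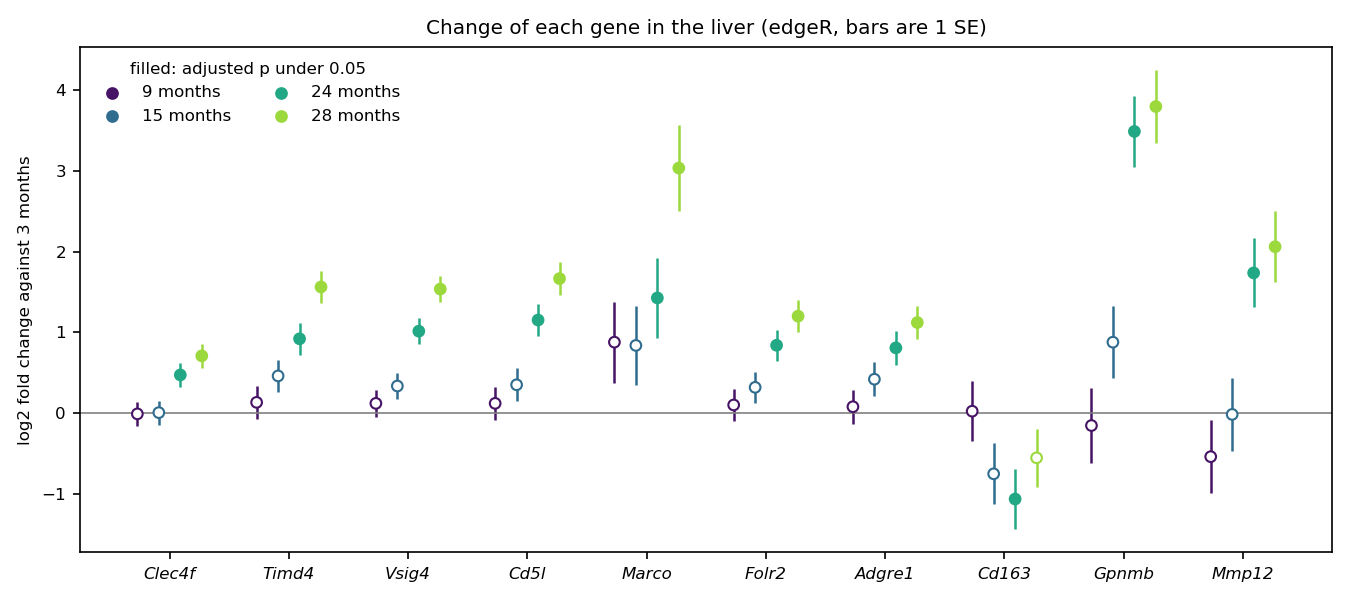
Log2 fold change of each gene in the liver at 9, 15, 24 and 28 months against 3 months, with bars of 1 SE and filled points for an adjusted p under 0.05. No point at 9 or 15 months is filled, all 10 at 24 months are, and at 28 months all but Cd163.

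The 2 earlier comparisons with young liver gave no call. At 9 months 0 of the 10 genes were called against 3 months, where 4.69% of all genes were, and at 15 months 0 again, where 7.32% were. At an unadjusted p under 0.05 these were 0 and 4 genes, DESeq2 called 0 at both ages, and voom with quality weights called 0 and 5. Without 3 months replicate 12 the 15-month count was 3, namely Timd4 with a log2 fold change of 0.63, Adgre1 with 0.62 and Gpnmb with 1.66. Shares of all genes called in these other fits are not given here. Between 9 and 15 months no gene of the 10 was called and 0.0514% of all genes were, with 2 of the 10 at an unadjusted p under 0.05 and 0 called by DESeq2 or voom. Between 15 and 24 months 6 genes rose, Clec4f, Vsig4, Cd5l, Folr2, Gpnmb and Mmp12, and 36% of all genes were called, 21.6% as higher. Gpnmb rose most in this step, by 2.61 ± 0.43 on the log2 scale (adjusted p 5.18e-06, edgeR). That value includes 24 months replicate 13, whose Gpnmb level was 51.6 CPM against 17.1 CPM in the next liver. Leaving it out lowered the change at 24 against 3 months from 3.49 to 2.84, and the value of the step from 15 months without it is not given here. Between 24 and 28 months Timd4, Marco and Vsig4 rose, by 0.64 ± 0.19, 1.61 ± 0.48 and 0.52 ± 0.16 on the log2 scale, with 15.3% of all genes called and 6.18% as higher. None of these 3 passed without 28 months replicate 9, when their log2 fold changes were 0.47, 1.13 and 0.33. In the test of all ages together all 10 genes were called, as were 71.5% of all genes.

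Within preps the counts differed. At 28 against 3 months 9 of the 10 genes were called in prep 1, 3 in prep 2 and 9 in prep 3, all as higher, against 39.9%, 15.6% and 42.2% of the genes tested there. Prep 2 holds 3 months replicate 12, and without it 8 were called beside 25.3% of all genes. Vsig4, Timd4 and Gpnmb were the 3 called in prep 2 with that liver in place. At 24 against 3 months the counts were 2, 6 and 10, against 5.83%, 15.5% and 33.4% of the genes tested.

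Most other Kupffer cell genes rose. At 28 against 3 months 61.9% of all tested liver genes were called, 31.9% as higher, and these shares stand beside every list below. Of 15 further Kupffer cell genes 12 rose and 1 fell at 28 months. Spic, the transcription factor of iron-recycling macrophages, rose by 1.84 ± 0.28, and Il18bp, which encodes a decoy that binds interleukin-18, by 1.45 ± 0.18 on the log2 scale. C6, a terminal complement component that hepatocytes also make, fell by 1.66 on that scale. Nr1h3, the oxysterol receptor LXR-alpha of Kupffer cells and hepatocytes, had a log2 fold change of -0.05 ± 0.06 and did not pass. All 18 of 18 general macrophage genes rose, with a median log2 fold change of 1.41. They include Csf1r, the receptor of the macrophage growth factors, at 1.27, Cd68 at 1.53, Spi1, which encodes PU.1, at 1.77, and the protease gene Ctss at 1.72.

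Genes of lipid-associated and recruited macrophages also moved. Of 14 lipid-associated macrophage genes 9 rose and 3 fell. Trem2, the lipid-sensing receptor of these cells, rose by 2.89 ± 0.33 and Atp6v0d2, a subunit of the lysosomal proton pump, by 3.84 ± 0.37. The 3 that fell were Plin2, a lipid droplet protein, at -1.34 ± 0.12, Apoe at -0.30 ± 0.08 and Fabp5 at -0.73. Of these, Plin2 and Apoe are abundant in hepatocytes. Spp1 at 0.26 and Cd9 at 0.10 were not called. For this list and the Kupffer cell list, which cells the rises and falls came from was not tested. All 14 of 14 monocyte genes rose, with a median of 2.01. Ccr2, the receptor by which monocytes leave the marrow, rose by 1.97 ± 0.32, F13a1 by 3.06 ± 0.47 and Chil3 by 3.86 ± 0.69. Without 3 months replicate 12 the log2 fold changes of F13a1 and Chil3 were 3.82 and 5.66. The summed level of the 14 monocyte genes ranged from 119 to 373 CPM at 3 months and from 189 to 1205 CPM at 28 months, and that of the 18 general macrophage genes from 481 to 1776 and from 759 to 3822 CPM. No gene of either list was at the floor of 3 counts in every liver. What part monocyte-derived cells had in the change of the 10 genes was not tested.

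Genes of other blood cells rose in the same comparison. All 8 tested of 9 neutrophil genes rose, with a median log2 fold change of 3.57 (S100a8 3.67, Ngp 5.54). Camp, at 7.06, was below the filter in 9 of the fits that left out 1 liver. A gene kept only through its level in old livers could only be called higher, so this count and median depend partly on the filter. Without 28 months replicate 9, 7 neutrophil genes were tested and 7 rose, with a median of 3.48. Ngp, a granule protein gene, had a median of 0.862 CPM and a highest value of 128 CPM at 28 months, and its log2 fold change was 4.54 without 28 months replicate 3 and 6.88 without 3 months replicate 12. All 9 of 9 B and plasma cell genes rose, with a median of 2.88 (Ms4a1 3.56, Igkc 3.53), and 8 of 10 T and NK cell genes, with a median of 1.74 (Cd8a 3.04, Cd3g 2.05). Without 3 months replicate 12 the log2 fold change of Cd8a was 3.91, and 9 of the 10 T and NK cell genes rose. Of 8 dendritic cell genes 5 rose and 3 fell, with the transcription factor gene Batf3 at 1.497, the dead-cell receptor gene Clec9a at 0.80 and Zbtb46 at -0.19. Without that young liver 5 rose and 2 fell. The median over all tested genes was 0.01. The summed neutrophil level ran from 4.90 to 32.5 CPM at 3 months and from 11.9 to 657 CPM at 28 months, and that of B and plasma cells from 20.7 to 89.5 and from 107 to 1922 CPM. Their part in the result for the 10 genes was not tested.

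Genes of the cells that surround Kupffer cells had smaller median changes. Of all tested genes 61.9% were called, 31.9% as higher, and a count near these shares is no result about a cell type. Of 12 sinusoidal endothelium genes 1 rose and 5 fell, with a median log2 fold change of -0.19, Pecam1 at 0.25 the lectin gene Clec4g at -0.34 and Oit3 at -0.40. Of 10 stellate cell genes 8 rose with a median of 0.32, among them Dcn, which encodes decorin, at 0.81 and the transcription factor gene Lhx2 at 0.64. Of 10 hepatocyte genes 1 rose and 4 fell, with Pck1 of gluconeogenesis at 0.90, Ttr, which encodes transthyretin, at -0.77 and Serpina1e, an antitrypsin gene, at -2.81. Of 5 tested cholangiocyte genes 3 rose, Krt7 by 1.18 and Epcam by 0.77. Without 28 months replicate 14 0 of the 5 rose and 1 fell, with log2 fold changes of 0.04 for Krt7 and 0.16 for Epcam, so these calls rested on that liver. Among 17 ligands and receptors of the macrophage niche 10 rose and 0 fell. The growth factor genes Csf1 and Il34 rose by 0.64 ± 0.12 and 0.55 ± 0.10, and the chemokine genes Ccl2, Ccl7 and Cx3cl1 by 1.72, 2.37 and 1.70 on the log2 scale. Without 28 months replicate 14 the change of Cx3cl1 was 1.07.

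Beside Cd163, other genes of haemoglobin and iron handling were listed. Of 12 iron and haem genes, a list that includes Cd163 itself, 7 rose and 2 fell. Among all tested genes 61.9% were called and 31.9% as higher. Hp, which encodes haptoglobin, rose by 1.14 ± 0.24, Hpx, which encodes the haem carrier haemopexin, by 1.21 ± 0.19, and Hmox1, the haem-degrading oxygenase, by 1.71 ± 0.22. The iron exporter gene Slc40a1 rose by 0.44 ± 0.10, and the ferritin genes Fth1 and Ftl1 fell by 0.19 and 0.43 on the log2 scale.

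**Figure D3:**
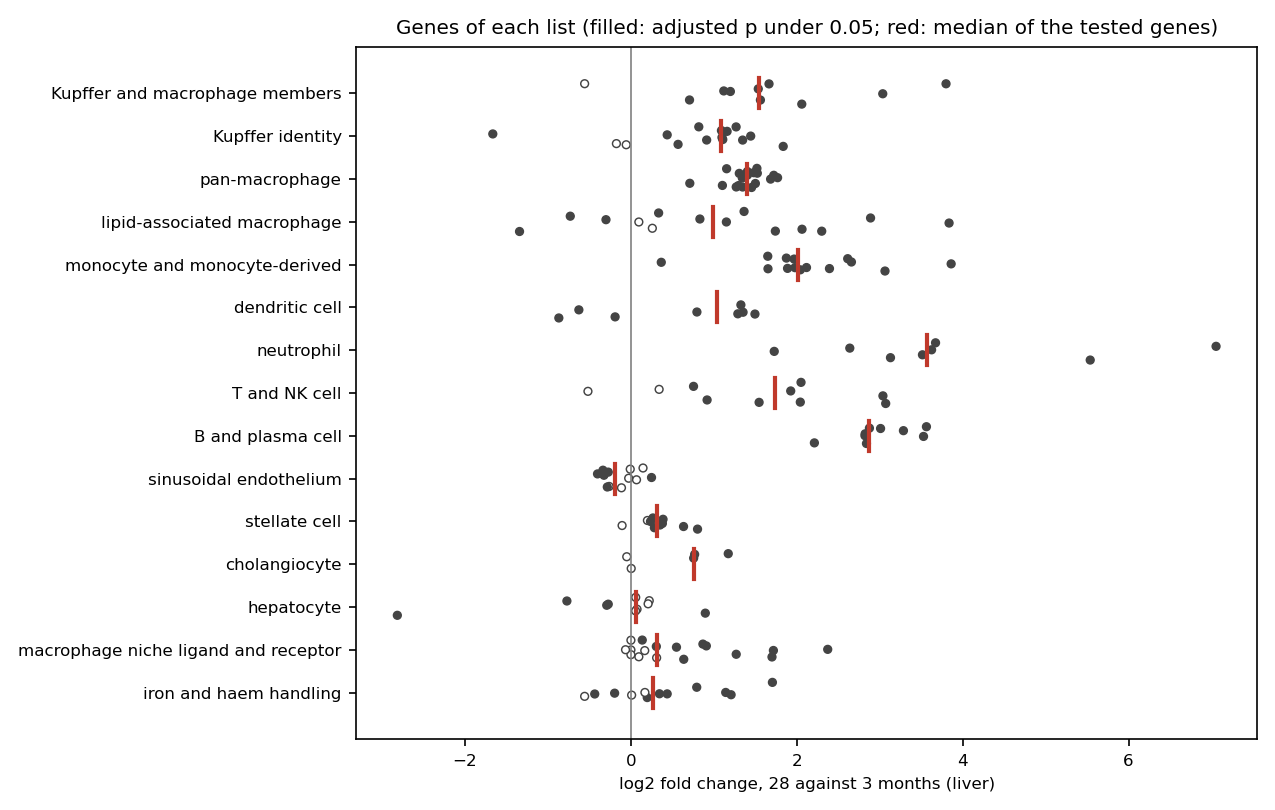
Log2 fold change at 28 against 3 months in the liver for every tested gene of the 10 genes and of 14 lists, filled where the adjusted p is under 0.05, with the median of each list in red. Neutrophil genes have the highest median at 3.57, the 10 genes stand at 1.55 and sinusoidal endothelium lies lowest at -0.19.

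The 10 genes were also set against the general macrophage genes. The difference between log2 CPM of a gene and the mean log2 CPM of the 18 general macrophage genes was taken in each liver, as a description with no test. Between the medians of 3 and 28 months this difference shifted by 0.00 for Timd4, 0.09 for Cd5l, 0.16 for Vsig4 and -0.20 for Adgre1, the 4 smallest shifts of the 10. A small shift of the median did not mean that old livers stayed in the young range, since 10 of 18 at 28 months were above the highest young liver for Cd5l, 10 for Vsig4 and 4 for Timd4, and 7 of 18 were below the lowest for Adgre1. It shifted by -0.38 for Folr2 and -0.61 for Clec4f, and 14 of 18 livers at 28 months had a lower Clec4f value than any young liver. For Cd163 the shift was -2.71, with 17 of 18 livers below the lowest young one and 1 above the highest. Marco shifted by 1.51, Mmp12 by 1.37 and Gpnmb by 2.84, and 12 of 18 old livers exceeded every young one for Gpnmb but 0 for Mmp12.

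**Figure D4:**
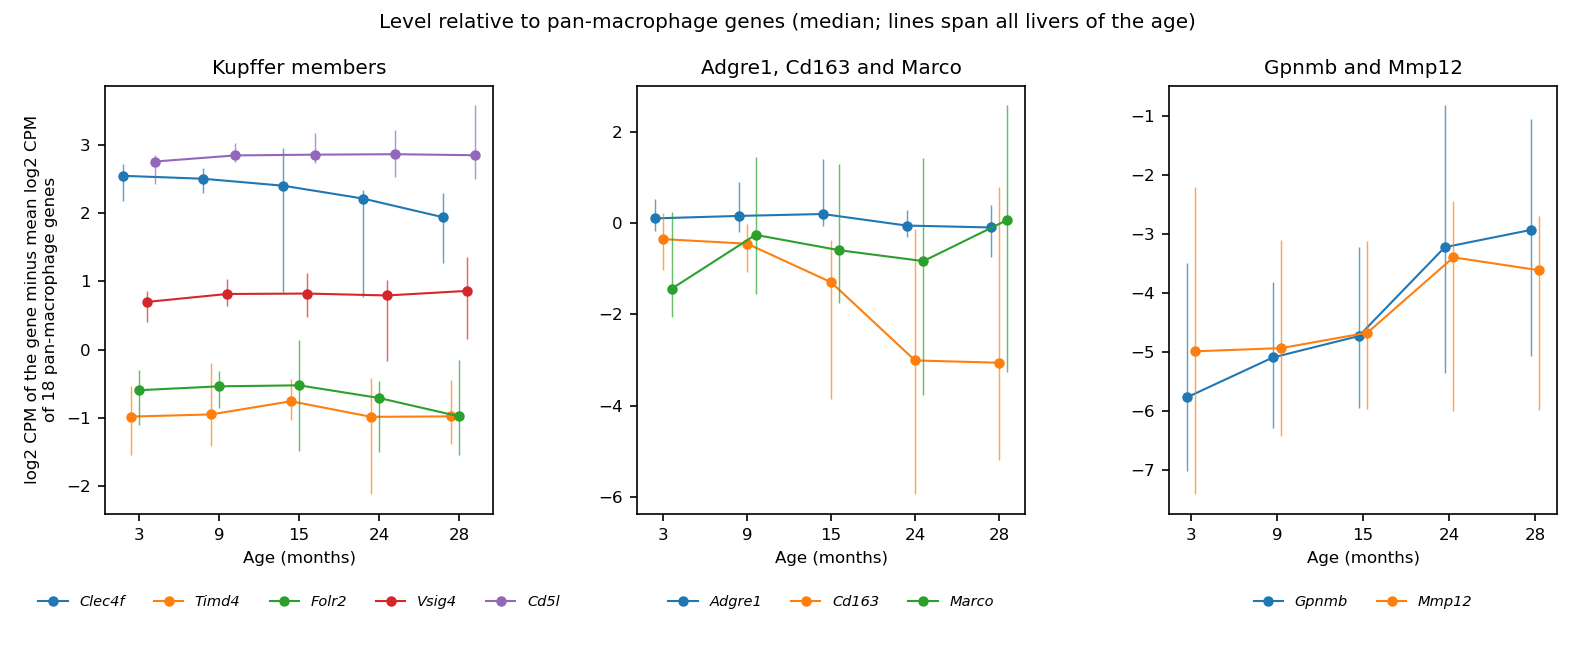
Difference between log2 CPM of each gene and the mean log2 CPM of 18 general macrophage genes by age in months, points at the median and lines from the lowest to the highest liver. From 3 to 28 months the median of Timd4 shifts by 0.00, that of Clec4f by -0.61, that of Cd163 by -2.71 and that of Gpnmb by 2.84.

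Across the 83 livers the first 7 of the genes named at the start varied together. Which cells their RNA came from was not tested. After the means of age and prep were removed, all 21 pairs among Clec4f, Timd4, Marco, Vsig4, Cd5l, Folr2 and Adgre1 were correlated at an adjusted p under 0.05 over 45 pairs (two-sided permutation test, 100000 permutations within age, whose smallest p is 1e-05). Their Pearson's r ran from 0.526 to 0.959, and from 0.399 to 0.945 without the 2 livers farthest from the median. Within single ages the lowest r of these pairs was 0.791 at 3 months, 0.439 at 9, -0.236 at 15, 0.599 at 24 and 0.62 at 28 months. The closest pair was Vsig4 and Cd5l, whose promoters are shown above, with r = 0.959 and rho = 0.947, and r = 0.945 without the 2 livers farthest from the median (permutation adjusted p 2.14e-05). Gpnmb and Mmp12 formed a second pair with r = 0.724 and rho = 0.634, and r = 0.637 without 2 livers (permutation adjusted p 2.14e-05). Between the first 7 genes and these 2, r ran from 0.147 to 0.473 and 11 of 14 pairs passed. However, rho ran from 0.027 to 0.319 and only 4 of 14 passed with it, those of Gpnmb with Timd4, Marco, Cd5l and Adgre1. Without 2 livers the r of these 14 pairs ran from -0.012 to 0.392. Cd163 had r from -0.15 to 0.323 against the other 9 over all livers, with 1 pair passing, that with Marco (r = 0.323, rho = 0.293, permutation adjusted p 0.0241, r = 0.39 without 2 livers). With rho 3 of its 9 pairs passed, those with Clec4f (rho = 0.369, permutation adjusted p 0.00364), Marco and Vsig4. Within ages its r with the other 9 was 0.417 to 0.625 at 3 months and 0.283 to 0.606 at 9 months, then -0.569 to 0.831 at 15, -0.516 to 0.271 at 24 and -0.151 to 0.448 at 28 months. Cd163 thus had a positive r with all 9 others at 3 and at 9 months. At 3 months, however, replicate 12 held the highest level of all 10 genes. Values of r within 3 months without that liver were not taken, for these pairs or for those among the first 7 genes. In all 34 of 45 pairs passed, and 29 with Spearman's rho. The genes of a pair share their library and the macrophage content of the piece of liver taken.

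**Figure D5:**
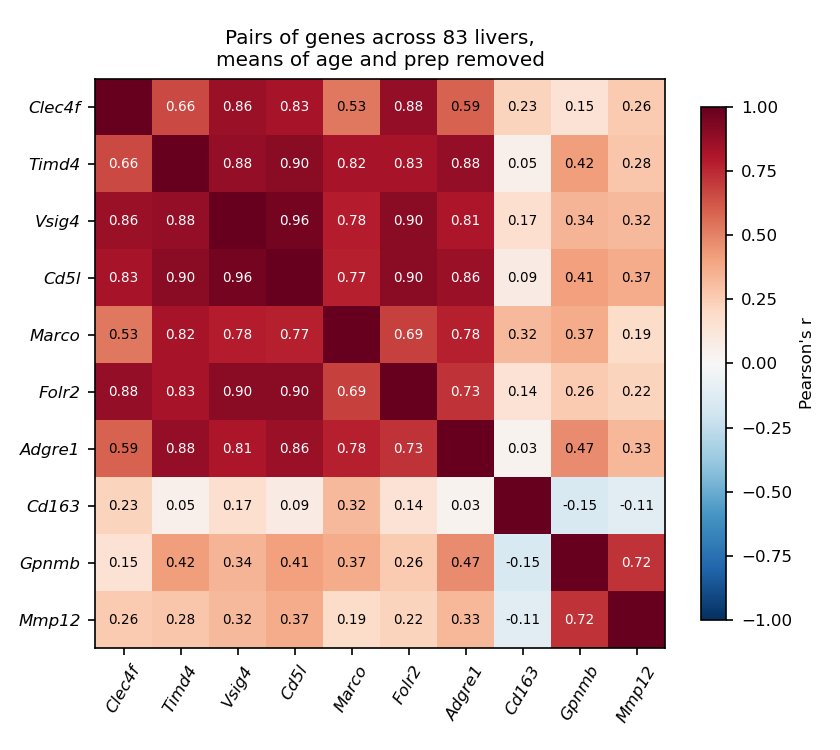
Pearson's r between log2 CPM of each pair of genes over 83 livers after the means of age and prep were removed. The first 7 genes, Clec4f to Adgre1, form a block from 0.53 to 0.96, Gpnmb and Mmp12 a pair at 0.72, and the row of Cd163 stays between -0.15 and 0.32.

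The genes most like each member were ranked among 12736 liver genes by the same residual correlation over 83 livers, as a description. Clec4f was most like Ptgs1 (r = 0.822, rho = 0.756), Sdc3 (r = 0.808, rho = 0.769) and Fcna (r = 0.803, rho = 0.708). Timd4 was most like Cfp (r = 0.904, rho = 0.877), Adgre4 (r = 0.899, rho = 0.868) and Aoah (r = 0.88, rho = 0.87). For Gpnmb the closest were H2-M2 (r = 0.836, rho = 0.731), Gimap3 (r = 0.756, rho = 0.547) and Nfatc2 (r = 0.752, rho = 0.597). H2-M2 also led for Mmp12 (r = 0.723, rho = 0.653), ahead of Cd300lb (r = 0.717, rho = 0.659) and Ptafr (r = 0.707, rho = 0.615). For Cd163 the highest values were lower, with the chemokine gene Ccl24 first (r = 0.511, rho = 0.467), then Sec63 (r = 0.442, rho = 0.317) and Gclm (r = 0.439, rho = 0.259).

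The brains of the same mice, 82 in all, gave a second tissue in which macrophages are mainly microglia. Only Adgre1, Folr2, Cd163 and Gpnmb passed the filter there, and the other 6 had medians of at most 0.0578 CPM at 3 months. Of the 4, 3 rose at 28 months, where 28.3% of all brain genes were called and 16.3% as higher. Adgre1 ranged from 4.38 through 5.33 to 6.29 CPM at 3 months and from 2.07 through 6.73 to 11.3 CPM at 28 months, a log2 fold change of 0.41 ± 0.08. Cd163 ranged from 1.13 through 1.495 to 3.01 CPM and from 0.459 through 2.24 to 4.24 CPM, a log2 fold change of 0.50 ± 0.15 (adjusted p 0.00865, edgeR). Both 28-month lows were in replicate 15, with only 18 counts of Adgre1 and 4 of Cd163. The next lowest brains held 5.955 and 1.293 CPM. Gpnmb rose by 0.60 ± 0.10, from a median of 3.72 to 6.07 CPM, where the 3-month liver had a median of 0.316 CPM. Folr2 had a log2 fold change of 0.07 ± 0.34. It was low in brain, with medians of 0.271 CPM at 3 months and 0.269 CPM at 28 months, and highest values of 1.465 and 2.103 CPM. The age ranges of all 4 overlapped in the brain. The change of the liver differed from that of the brain for all 4, in a test that called 49.2% of 14035 genes. In a fit of only 3 and 28 months those of Folr2 and Cd163 were not called.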

How the data were processed

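The deposited values are whole-number counts per Ensembl gene and library, 1 table per tissue. Per the submitters' processing notes, tools were cutadapt 2.8, HISAT2 2.1.0, SAMtools 1.9 and featureCounts of Subread 2.0.1, with builds GRCm38.p6 and mm10. The annotation release and the strand setting of the counting are not given in the sources used here. Per the labels' protocols, libraries came from a stranded polyA kit. Symbols matched 55144 of 55471 identifiers, and 0 columns were left unused.

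Counts were fitted with edgeR 4.0.16 in R 4.3.3, with filterByExpr by age, TMM scaling, and terms for age and prep over all livers. The quasi-likelihood test is two-sided. Each SE was the size of the log2 fold change over the square root of F. Log2 CPM used a prior count of 2. DESeq2 1.42.0 and limma 3.58.1 were alternatives, as were RLE scaling, no filter, single preps, a depth minimum of 15 M counts, a replicate block and leaving out each liver. The 28-month fit was tested on simulated data of 15579 genes. It recovered 92 of 100 genes changed by 1 on the log2 scale, and 8 of all the unchanged genes were called. The simulated counts followed the trend of spread over all genes, with no effect of prep, no outlying livers and few changed genes. Whether that recovery holds for genes moved by single livers, such as Marco and Cd163, was not tested. The floor of 3 counts covers counting error only.

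The 10 genes and all lists were chosen with earlier results of these data known. Named from each list are the 2 highest and 2 lowest calls whose direction held in every prep and whose mean reached 1 CPM, beside Csf1r, Cd68, Ccr2, Trem2, Spic and Nr1h3. Camp, Fabp5, Spp1, Cd9, Ccl7, Csf1, Il34, Hp and Slc40a1 were named after their values were seen. For likeness, the 3 genes of highest r were taken for 5 of the genes.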

Additional observations from a re-analysis of the deposited data

Results flagged for a closer look

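The change from 3 to 28 months differed between liver and brain for the 4 genes tested in both tissues, tested in a joint edgeR fit as the interaction of tissue and age. The liver change exceeded the brain change by 0.74 ± 0.23 on the log2 scale for Adgre1 (adjusted p 0.00431), by 1.17 ± 0.39 for Folr2 (adjusted p 0.0087) and by 3.21 ± 0.42 for Gpnmb (adjusted p 1.36e-10). For Cd163 the difference was -1.02 ± 0.42 (adjusted p 0.0326), with a higher level in old brain and no call in old liver. With only the libraries of 3 and 28 months, Cd163 had an adjusted p of 0.0584 and Folr2 of 0.05.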

How the results depend on the processing

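Every gene other than Cd163 kept a positive change at 24 and 28 months under all alternatives run. Cd163 reversed in prep 1 alone at 24 months (0.10) and at 28 months in prep 2 alone (0.14) and in prep 2 less 3 months replicate 12 (0.33). Counts of the 10 genes called moved as follows. Beside the main fit, the genes called in all are given only for single preps at 24 and 28 against 3 months. They are also given for voom and the replicate block at 28 against 3 months. The counts alone therefore do not show that the 10 genes moved apart from the rest. Voom with quality weights gave 5 at 15 against 3 months and 5 at 28 against 24 months. Fits without the least like liver of each age, chosen after seeing the data like the prep 2 fit less replicate 12, gave 3 and 5 there. Fits of only the 2 ages gave 1 and 0. Single preps gave 2 (prep 1) and 6 (prep 2) at 24 against 3 months, 3 (prep 2) at 28 against 3, 0 (prep 1) and 1 (prep 3) at 24 against 15, and 5, 0 and 0 at 28 against 24, also 0 in prep 2 less replicate 12. Prep 2 gave 6 over all ages. Without a filter the brain gave 5, and the liver against brain test gave 2 with only 3 and 28 months. Single preps hold fewer mice, and the cause of the other moves was not tested. Leaving out 1 liver gave 0 to 3 at 15 against 3 months and 0 to 4 at 28 against 24 months. The replicate block gave 10 at 28 against 3 months, adding Cd163 (-1.03, edgeR adjusted p 0.0127), beside 9489 of 15579 genes called in all. It gave 8 at 24 against 15 and 2 in the brain. Replicate numbers did not pair livers, since same-numbered livers of different ages had a median residual correlation of 0.009 and 3 of 83 matched their own number best. Brain and liver of 1 mouse had 0.05, and voom gave 4 liver against brain calls with the mouse as a block and 3 without it, where Folr2 had an adjusted p of 0.0596. Depth limits Gpnmb and Mmp12 in young livers.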
